A study of Mus musculus with 36 samples.

Results

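The rows described here are ribosomal protein pseudogenes, the rows of the deposited count matrix whose gene symbol begins with Rpl or Rps and contains "-ps". There were 135 of them among 24265 rows. The symbol before "-ps" names a parent gene, and the 135 rows belonged to 46 parents, all of which have rows of their own. Rpl31 had the most pseudogene rows, 10, and 16 parents had 1 each. The measurements are 36 bulk RNA-seq libraries of the hypothalamus, the brain region that controls feeding and hormone release, from mice that the labels call wild type and untreated. They cover 3 inbred strains: C57BL/6J, the strain of the mouse reference genome, NZO/HlLtJ, a model of obesity and diabetes, and CAST/EiJ, a wild-derived strain. Males and females of each strain ate a control diet (10% fat with fiber) or a high fat, high sugar diet (HFHS, 44% fat with fiber) from 6 weeks of age until the tissue was taken at 15 weeks. Each of the 12 combinations of strain, diet and sex has 3 libraries, so each strain has 12. The labels do not state in words that each library is a separate animal. Values by strain are given below in the order C57BL/6J, NZO/HlLtJ, CAST/EiJ, and replicate numbers only name libraries.

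Ribosomal proteins form the large (Rpl) and small (Rps) subunits of the ribosome around the ribosomal RNA, and their mRNAs are among the most abundant of most cells. A processed pseudogene arises when a spliced mRNA is copied back into DNA and inserted elsewhere in the genome. The copy lacks introns and can stay almost identical in sequence to its parent's mRNA, so that a short read may match both. The question of the comparison was how far the level of each pseudogene row moves with strain, and what its parent's row does at the same time.

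The library totals ran from 23885206 to 47250454 counts, and the pseudogene rows together took 0.0299% to 0.126% of a library. The annotation calls 124 of the rows processed pseudogenes, 6 transcribed processed pseudogenes and 4 protein-coding genes (Rpl9-ps6, Rpl10-ps3, Rps12-ps3 and Rpl36a-ps1). The remaining row, Rpl31-ps12, has no entry in the annotation used. They lie on 20 chromosomes, 13 of them on X and 6 on their parent's chromosome, and 133 consist of 1 exon. All 14 hypothalamic markers, such as the neuropeptide genes Pomc and Agrp, had a mean of at least 1 CPM (counts scaled by library size), and summed to 591 to 1280 CPM in 35 of the libraries. The library named CAST/EiJ control female 1 stood apart, with 2073 CPM of those markers. Its pituitary hormone markers summed to 2440 CPM, against 2.21 to 273 CPM elsewhere, and its parent-plus-pseudogene levels lay above every other CAST/EiJ library in 45 of 46 families, and over the families a median of 0.80 on the log2 scale above the median of those libraries. The table holds 7 of the 8 listed pituitary markers. Highest values that rest on this library are also given without it. Of 69 strain comparisons of 23 of the rows named below, 63 stayed on the same side of the threshold when it was left out. The 4 lost calls were those of Rps23-ps1 and Rps25-ps1 between CAST/EiJ and C57BL/6J and of Rpl10-ps3 and Rpl10-ps6 between NZO/HlLtJ and CAST/EiJ, and 2 were gained, Rpl10-ps3 and Rps23-ps1 between NZO/HlLtJ and C57BL/6J. In bulk tissue, fewer cells of a type and less RNA per cell cannot be told apart.

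Most pseudogene rows held almost nothing. The median of their mean levels was 0.0286 CPM, 100 of the 135 had a mean under 0.1 CPM, and 54 never reached 5 counts in any library. Only 32 passed the filter on low counts and could be tested, and 103 could not. A row can pass that filter through 1 strain alone, and then it had to differ between strains. A mean of at least 1 CPM was reached by 16 of the rows. At the other end, Rpl35a-ps2, Rpl35a-ps3, Rpl35a-ps6, Rpl30-ps10 and Rpl21-ps1 held the smallest shares of their parents' counts, 0.000186% to 0.000563% over all libraries.

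The deposited counts are estimates that need not be whole. Of the pseudogene values of at least 1 count, 84.3% were not whole within a tolerance of 0.001 count. The share was 85.9% for the parents, 64.2% for the other cytosolic ribosomal protein genes and 22.9% over the values of at least 1 count of all rows. Of all 4860 pseudogene values, 278 were exactly 0 and a further 2278 were above 0 but under 0.001 count. The very small values quoted below are of this kind, far under 1 count.

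Likeness to the parent was measured at the read length of 100 bases. The transcripts in the GENCODE annotation (release M21, build GRCm38) were cut into all 100-base windows and each window was looked up in the parent's transcripts. All windows were found in the parent for 13 of 134 pseudogenes, and at least 50% of them for 44. For 67 some but under 50% were found there, and for 23 none. The median identity to the parent over the aligned part was 98.7%, and the lowest was 87.5%.

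The following stretches of 100 bases lie inside the parent's coding part and were chosen because these pairs are among those with the largest strain differences. Positions are counted from 1 at the A of the parent's start codon, and capitals mark the bases at which pseudogene and parent differ. Rps12-ps3 (chr19:59322371-59322470, plus strand) and Rps12 (gene at chr10:23785211-23787195, minus strand) are identical over bases 1 to 100, as over the whole pseudogene:
Rps12-ps3: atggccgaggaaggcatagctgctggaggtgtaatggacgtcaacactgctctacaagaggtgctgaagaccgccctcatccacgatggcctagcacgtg
Rps12: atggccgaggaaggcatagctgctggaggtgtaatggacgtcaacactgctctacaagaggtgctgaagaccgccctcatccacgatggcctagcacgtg

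Rpl9-ps6 (chr19:32466237-32466336, minus strand) differs from Rpl9 (gene at chr5:65388364-65391444, minus strand) by 1 base over its aligned length, G266A, shown here with bases 216 to 315:
Rpl9-ps6: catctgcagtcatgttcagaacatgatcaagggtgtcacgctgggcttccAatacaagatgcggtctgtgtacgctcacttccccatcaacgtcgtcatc
Rpl9: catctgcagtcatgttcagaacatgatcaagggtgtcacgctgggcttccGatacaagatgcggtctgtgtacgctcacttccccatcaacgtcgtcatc

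Rpl19-ps11 (chr8:19493076-19493175, plus strand) likewise differs from Rpl19 (gene at chr11:98026710-98030492, plus strand) by 1 base, G191A, shown with bases 141 to 240:
Rpl19-ps11: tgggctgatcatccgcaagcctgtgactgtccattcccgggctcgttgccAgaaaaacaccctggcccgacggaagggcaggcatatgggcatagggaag
Rpl19: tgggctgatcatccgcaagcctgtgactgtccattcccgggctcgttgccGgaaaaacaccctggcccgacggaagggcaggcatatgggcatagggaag

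Rps13-ps1 (chr8:87048076-87048175, plus strand) differs from Rps13 (gene at chr7:116331505-116334195, minus strand) by 2 bases, T411C and A429G, both within bases 357 to 456 at the end of the coding part:
Rps13-ps1: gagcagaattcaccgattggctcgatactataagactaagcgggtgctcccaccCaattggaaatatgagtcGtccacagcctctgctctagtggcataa
Rps13: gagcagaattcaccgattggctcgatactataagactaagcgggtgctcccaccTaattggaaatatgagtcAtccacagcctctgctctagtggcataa

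Rps15-ps2 (chr6:58017654-58017753, plus strand) has 10 differences from Rps15 (gene at chr10:80292453-80294114, plus strand), 6 of which fall within bases 149 to 248:
Rps15-ps2: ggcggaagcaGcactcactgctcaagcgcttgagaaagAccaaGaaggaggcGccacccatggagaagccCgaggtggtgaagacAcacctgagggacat
Rps15: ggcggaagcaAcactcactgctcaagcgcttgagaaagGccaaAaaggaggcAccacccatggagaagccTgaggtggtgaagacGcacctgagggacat

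In CAST/EiJ, 6 abundant pseudogene rows were far lower than in the other strains, while the parent rows of 5 of them were many times higher. Rpl9-ps6, a copy of the large-subunit gene Rpl9, had 197, 214 and 245 CPM (lowest, median and highest of 12 libraries) in C57BL/6J, 225, 242 and 270 CPM in NZO/HlLtJ, while CAST/EiJ had 1.72e-07, 0.174 and 2.15 CPM (highest without control female 1, 1.22 CPM). Rpl9 itself had 13.6, 17.0 and 21.7 CPM in C57BL/6J, 11.4, 15.9 and 21.4 CPM in NZO/HlLtJ, while CAST/EiJ had 238, 257 and 415 CPM (highest without control female 1, 309 CPM). No CAST/EiJ library overlapped any library of the other strains in either row, and the 2 rows moved in opposite directions. The fitted log2 difference of CAST/EiJ less C57BL/6J was -9.31 ± 0.20 (SE) for Rpl9-ps6 and 3.96 ± 0.09 for Rpl9 (edgeR, adjusted p = 1.19e-26 and 1.94e-26). The sum of the 2 rows had medians of 235, 256 and 257 CPM by strain.

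Rpl17-ps8, on chrX:96484859-96485479, copies Rpl17, a large-subunit gene whose protein lies near the exit of the peptide tunnel. It had 192, 217 and 245 CPM in C57BL/6J, 221, 238 and 263 CPM in NZO/HlLtJ, while CAST/EiJ had 0.0375, 1.25 and 12.3 CPM, where the highest without control female 1 was 5.56 CPM. Rpl17 ran the other way, with medians of 9.85, 6.78 and 240 CPM in the same order. The difference between CAST/EiJ and C57BL/6J was -6.75 ± 0.28 for the pseudogene and 4.75 ± 0.10 for the parent (edgeR, adjusted p = 5.42e-19 and 2.41e-26).

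Rpl19-ps11, which copies the large-subunit gene Rpl19, had 171, 182 and 208 CPM in C57BL/6J, 174, 194 and 225 CPM in NZO/HlLtJ, while CAST/EiJ had 1.71e-56, 0.247 and 1.38 CPM. Rpl19 had medians of 25.4, 27.2 and 224 CPM. The pseudogene row differed by -8.87 ± 0.16 on the log2 scale between CAST/EiJ and C57BL/6J, and the parent row was higher in CAST/EiJ by 3.22 ± 0.13 (edgeR, adjusted p = 4.28e-28 and 1.86e-19).

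Rpl27-ps3 and Rps12-ps3 share every 100-base window with their parents, the large-subunit gene Rpl27 and the small-subunit gene Rps12. Rpl27-ps3 had 56.99, 67.0 and 76.6 CPM in C57BL/6J, 60.7, 68.8 and 76.6 CPM in NZO/HlLtJ, while CAST/EiJ had 4.72e-09, 0.299 and 1.06 CPM. Rps12-ps3 had 53.4, 64.9 and 81.3 CPM in C57BL/6J, 60.8, 71.4 and 77.3 CPM in NZO/HlLtJ, while CAST/EiJ had 1.99, 2.63 and 4.21 CPM. Both rows were therefore low in all 12 CAST/EiJ libraries and high in all 24 others. The parents had medians of 11.9, 11.3 and 75.5 CPM (Rpl27) and 3.02, 3.77 and 87.9 CPM (Rps12) by strain. CAST/EiJ differed from C57BL/6J by -7.63 ± 0.12 for Rpl27-ps3 and -4.60 ± 0.08 for Rps12-ps3 (edgeR, adjusted p = 1.78e-29 and 3.70e-28). The difference was 2.75 ± 0.08 for Rpl27 and 4.91 ± 0.25 for Rps12 (edgeR, adjusted p = 8.25e-23 and 7.35e-17). The 100 bases of Rps12-ps3 printed above are the same in its parent.

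Rpl10a-ps1 also shares every window with its parent Rpl10a, a large-subunit gene, but held the smaller part of the pair. It had 7.15, 15.1 and 22.0 CPM in C57BL/6J, 7.24, 14.96 and 19.5 CPM in NZO/HlLtJ, while CAST/EiJ had 9.37e-41, 0.110 and 0.459 CPM. Rpl10a had medians of 74.8, 81.1 and 88.9 CPM. The pseudogene row was lower in CAST/EiJ than in C57BL/6J (-7.04 ± 0.32 on the log2 scale, edgeR, adjusted p = 5.15e-18), and the parent row was higher by 0.34 ± 0.06 (adjusted p = 7.28e-06).

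**Figure D1:**
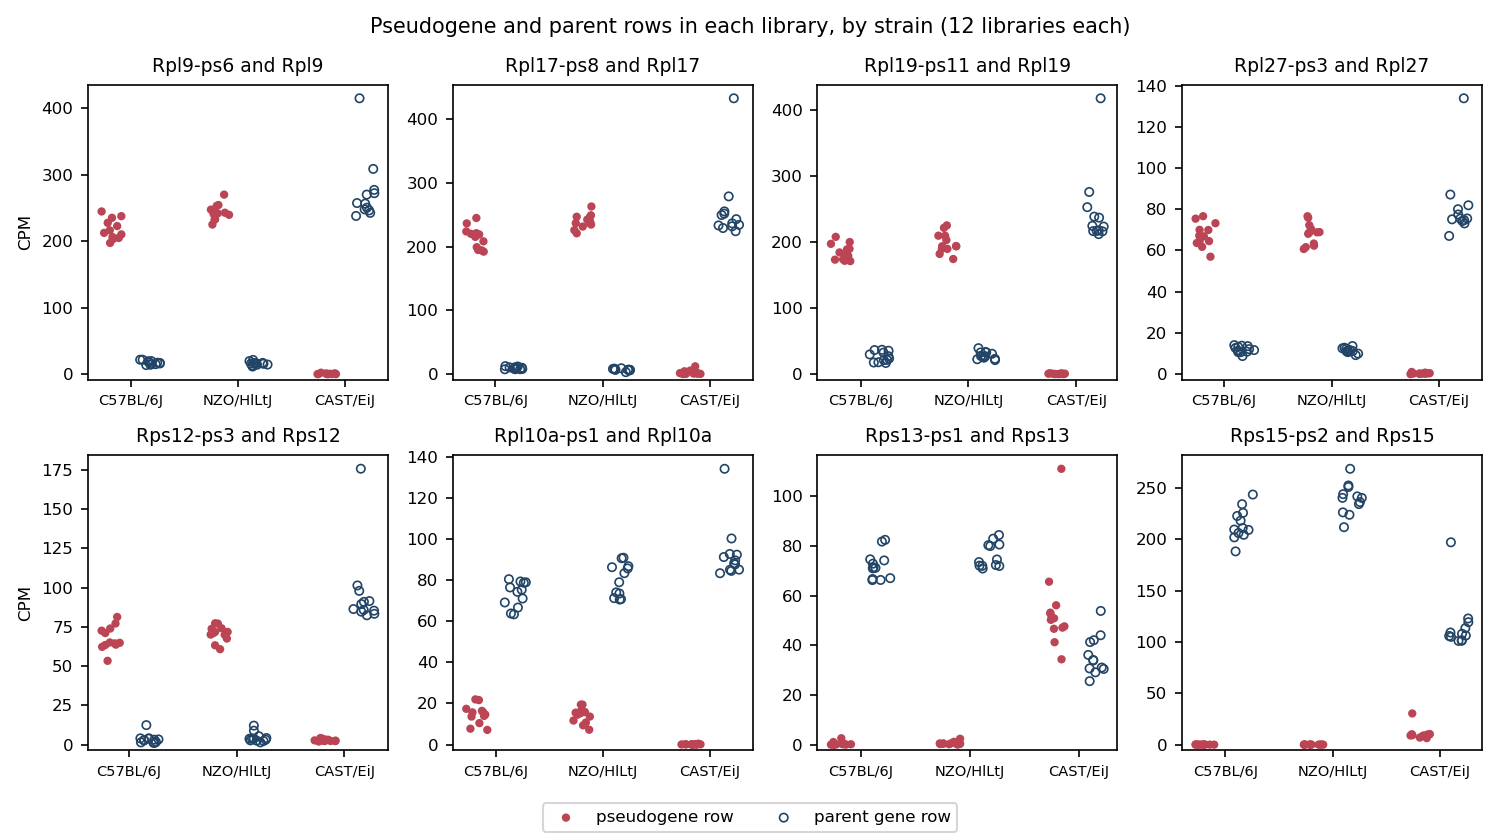
CPM (vertical axis, from 0, a scale of its own in each panel) of 8 pseudogene rows (filled points) and their parent rows (open points) in each of the 12 libraries of C57BL/6J, NZO/HlLtJ and CAST/EiJ; each point is 1 library. In CAST/EiJ the first 6 pseudogene rows sit near 0 and the parents of the first 5 are above all libraries of the other strains, while Rps13-ps1 and Rps15-ps2 are high in CAST/EiJ and at most 2.57 CPM elsewhere. Points far above the rest of CAST/EiJ are control female 1.

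Rps13-ps1 and Rps15-ps2 showed the opposite pattern and were filled in CAST/EiJ. Rps13-ps1, a copy of the small-subunit gene Rps13, had 0.000152, 0.111 and 2.57 CPM in C57BL/6J, 0.00581, 0.370 and 2.36 CPM in NZO/HlLtJ, while CAST/EiJ had 34.4, 50.6 and 111 CPM, where the highest without control female 1 was 65.7 CPM. Rps13 had medians of 71.3, 74.1 and 34.01 CPM. The ranges did not overlap, and CAST/EiJ differed from C57BL/6J by 8.02 ± 0.40 for Rps13-ps1 and -1.01 ± 0.07 for Rps13 (edgeR, adjusted p = 6.05e-17 and 1.14e-13).

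Rps15-ps2 copies Rps15, whose small-subunit protein lies near the decoding site. It was at 0 in the median library of C57BL/6J and of NZO/HlLtJ, with highest values of 0.203 and 0.122 CPM, and had 6.32, 9.04 and 30.4 CPM in CAST/EiJ (highest without control female 1, 10.3 CPM). Summed over 12 libraries, the row held 12 counts in C57BL/6J, 12 in NZO/HlLtJ and 4347 in CAST/EiJ. Its values were not whole in 11 of 36 libraries, where values at or near 0 counted as whole. The row held at least 1 count in 4 C57BL/6J, 5 NZO/HlLtJ and all 12 CAST/EiJ libraries. How the 11 libraries split by strain is not given, so that number is not read against the other 7 rows of the plot. Of the 100-base windows of Rps15-ps2, 0.590% occur in Rps15. Rps15 had medians of 210, 240 and 107 CPM, and the gap between its medians was larger than the level of the pseudogene row in CAST/EiJ. The log2 difference of CAST/EiJ less C57BL/6J was 8.50 ± 0.40 for Rps15-ps2 and -0.90 ± 0.06 for Rps15 (edgeR, adjusted p = 6.74e-17 and 7.66e-14). Rps15-ps2 could pass the filter on low counts only through CAST/EiJ, so a strain difference of this row was fixed in advance and its adjusted p is no evidence of one.

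Of the 32 tested pseudogene rows, 16 were called at an adjusted p under 0.05 between CAST/EiJ and C57BL/6J, where 55.5% of the 20053 genes tested were called. Of these rows 6 were higher in CAST/EiJ, against 27.3% of all genes, and 10 were lower, against 28.2%. NZO/HlLtJ less CAST/EiJ gave 19 called rows, where 53.7% of all genes were called, with 14 higher (26.9% of all genes) and 5 lower (26.8%). NZO/HlLtJ less C57BL/6J gave 4, where 26.6% of all genes were called, with 2 higher (12.5%) and 2 lower (14.1%). The joint test over the 3 strains called 20, where 65.6% of all genes were called. In each of these comparisons the share of the 32 rows called was near the background or below it, and the 3 comparisons share strains.

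The counts of ranges and sizes given next describe the rows that passed the filter and not all 135. Some rows, Rps15-ps2, Rpl28-ps1, Rpl19-ps1 and Rps13-ps2 among them, could not pass it without the strain in which they are high. Ranges of all libraries did not overlap between CAST/EiJ and C57BL/6J for the 8 rows of the plot, 2 higher and 6 lower, where 11.8% of all tested genes had such ranges. The same 8 rows had ranges apart between NZO/HlLtJ and CAST/EiJ, where the share over all genes was 12%. None of the 32 had ranges apart between NZO/HlLtJ and C57BL/6J, where it was 4.91%. The absolute log2 difference of CAST/EiJ less C57BL/6J exceeded 4 and was called for 9 of the 32, against 358 of all 20053 genes tested. Among the 9, the call of Rpl28-ps1 was lost without C57BL/6J HFHS male 2 (edgeR, adjusted p = 0.9999). All of these 9 rows but Rps15-ps2 had at least 50% of their windows in the parent.

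**Figure D2:**
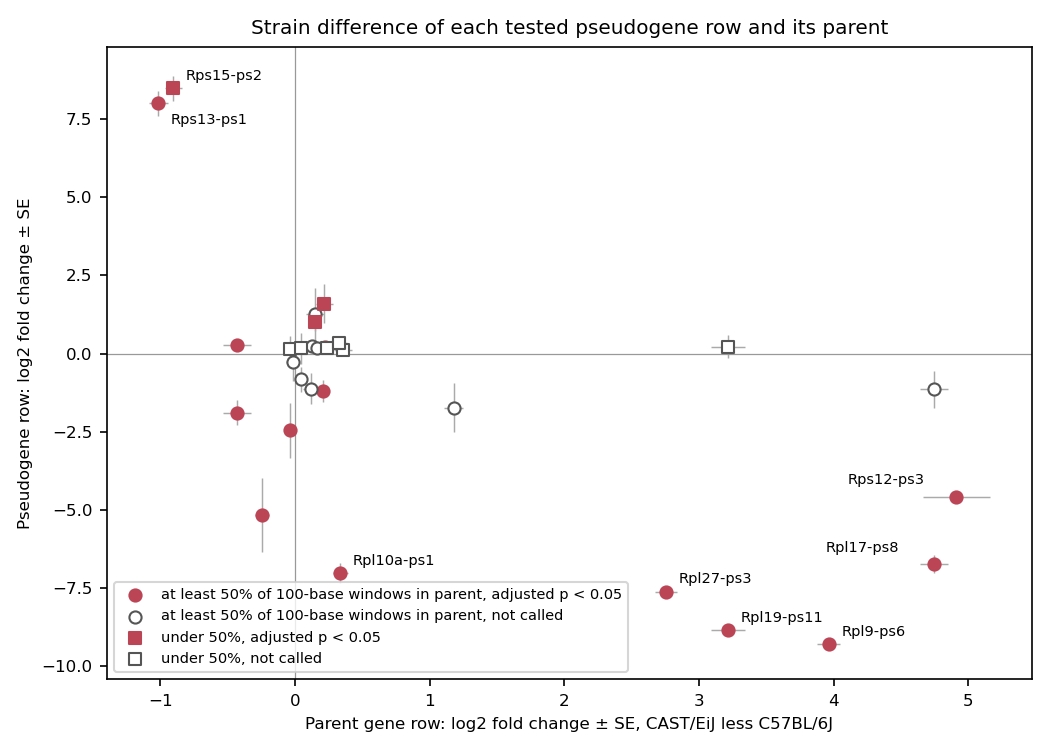
log2 fold change of CAST/EiJ less C57BL/6J (± SE) of each pseudogene row (vertical axis) against that of its parent row (horizontal axis); circles share at least 50% of their 100-base windows with the parent, squares fewer, and filled symbols passed an adjusted p of 0.05. It draws the 30 of the 32 tested rows with an SE under 5, a limit set for the plot, and leaves out Rps19-ps6 and Rps13-ps2. At the lower right lie 5 rows, with the pseudogene lower and the parent higher by over 2, and 2 lie at the upper left.

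Among the abundant rows, Rpl10-ps3, Rps23-ps1, Rpl39-ps, Rps16-ps2 and Rpl31-ps8 had overlapping ranges in all 3 strains. Rpl10-ps3, a copy of Rpl10, the large-subunit gene whose protein joins late and completes the catalytic centre, had 116, 129 and 148 CPM in C57BL/6J, 129, 139 and 154 CPM in NZO/HlLtJ, while CAST/EiJ had 131, 147 and 251 CPM. Without control female 1 the highest CAST/EiJ value was 170 CPM. Per kilobase of transcript the row lay above Rpl10 in every library, by a median of 2.36, 2.21 and 3.15 on the log2 scale. It shares 95.8% of its windows with Rpl10, and it held most of its pair's counts in every library, 78.1% to 93.1%. Its difference of 0.26 ± 0.05 between CAST/EiJ and C57BL/6J was called (edgeR, adjusted p = 1.87e-04), but not in the HFHS groups alone (0.12, adjusted p = 0.227). Rpl10 differed by -0.43 ± 0.11 (adjusted p = 9.97e-04).

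Rps23-ps1 copies the small-subunit gene Rps23, whose protein sits at the decoding centre, and had medians of 52.9, 60.5 and 57.2 CPM by strain. It held 27.1%, 28.2% and 26.2% of its pair's counts in the median library, although every window of it occurs in Rps23. Its difference of 0.20 ± 0.07 between CAST/EiJ and C57BL/6J passed the test (edgeR, adjusted p = 0.0181), but not without CAST/EiJ control female 1 (0.11, adjusted p = 0.0521) nor in the HFHS groups alone (0.09, adjusted p = 0.5004). Rps16-ps2 had medians of 19.98, 23.3 and 21.8 CPM and Rpl31-ps8 medians of 18.3, 17.9 and 17.8 CPM. Both share every window with their parents, Rps16 and Rpl31, and held 26.1% and 12.1% of the pair's counts in the median C57BL/6J library. Neither was called in any strain comparison.

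Rpl39-ps copies Rpl39, which encodes a very short protein of the peptide tunnel wall. It had 17.5, 20.7 and 27.5 CPM in C57BL/6J, 18.7, 23.4 and 28.2 CPM in NZO/HlLtJ, while CAST/EiJ had 19.2, 22.5 and 49.99 CPM (highest without control female 1, 25.3 CPM). Its transcript of 151 bases differs from Rpl39 by 1 base, T96C, and shares no 100-base window with it. The strain differences were 0.11 ± 0.11 and 0.19 ± 0.11 for NZO/HlLtJ and CAST/EiJ less C57BL/6J and were not called (edgeR, adjusted p = 0.492 and 0.132). Per kilobase it lay above Rpl39 in all libraries, by 1.78 to 2.61 on the log2 scale.

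**Figure D3:**
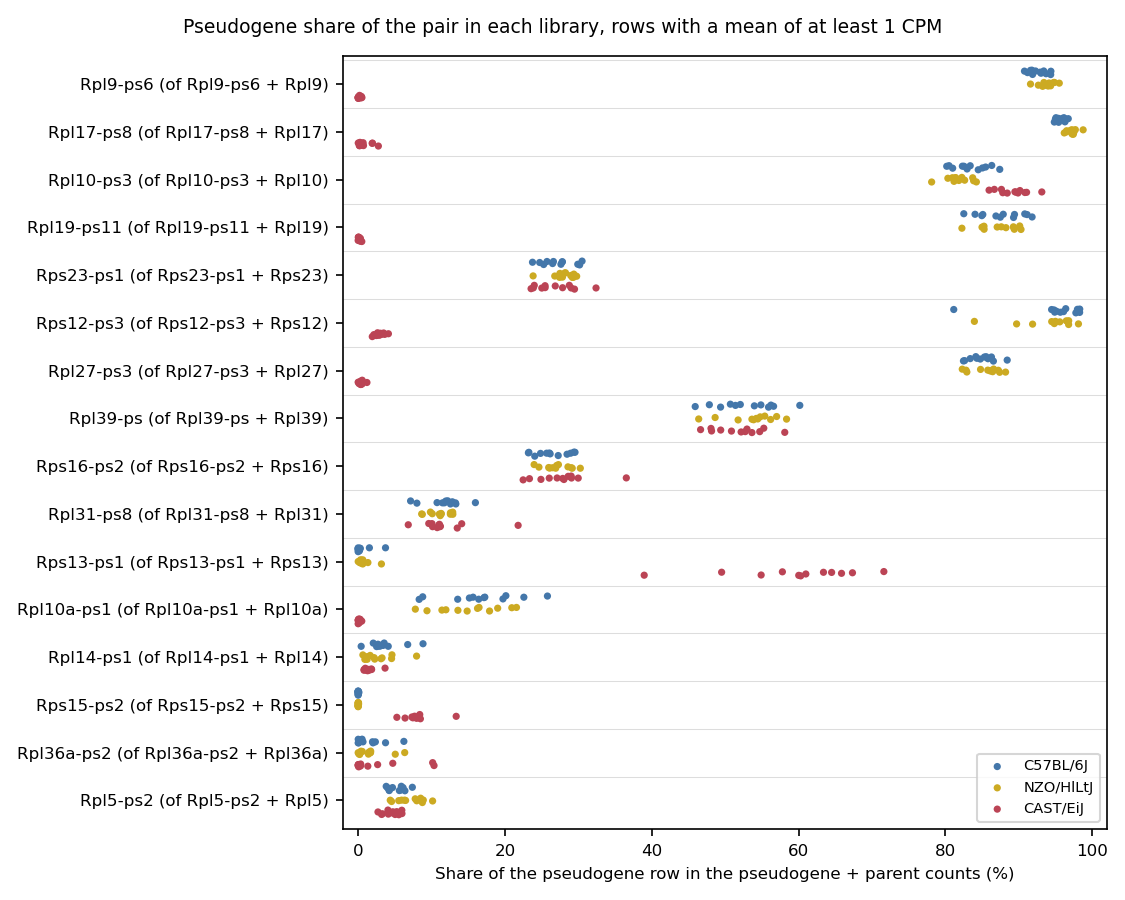
Share of the counts of pseudogene plus parent that the pseudogene row held (horizontal axis, percent) in each library, for the 16 rows with a mean of at least 1 CPM (vertical axis); each point is 1 library, coloured by strain. Rows from Rpl9-ps6 to Rpl27-ps3 jump from over 80% to under 5% in CAST/EiJ, except Rpl10-ps3, with medians of 83.2%, 81.6% and 89.5% by strain, and Rps23-ps1, with 27.1%, 28.2% and 26.2%.

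Rows with the same likeness to the parent differed widely in level. Among the 13 pseudogenes with every window in the parent, 10 were tested. Rps12-ps3 and Rpl27-ps3 held most of the pair's counts in 2 strains and a small part in CAST/EiJ. Rps6-ps4, identical to part of Rps6, held 0.0657%, 0.0529% and 0.0472% of the pair's counts in the median library of each strain, and was called in no strain comparison. Rpl36a-ps2 ran from 0.000126 to 12.8 CPM within CAST/EiJ alone (highest without control female 1, 6.79 CPM), and its differences were not called either. Of the 67 pseudogenes with some but under 50% of their windows in the parent, 7 were tested.

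Per kilobase, 7 of the 32 tested rows lay above their parent in the median library of C57BL/6J, 7 did so in NZO/HlLtJ and 3 in CAST/EiJ. Summed over all 135 rows, the pseudogenes had medians of 1000.0, 1106 and 342 CPM by strain. That was 14.5% to 15.7% of the pseudogene-plus-parent counts in C57BL/6J, 15.3% to 16.3% in NZO/HlLtJ and 4.67% to 6.58% in CAST/EiJ. The sum of pseudogenes and parents had medians of 6727, 6968 and 6808 CPM.

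Among the remaining called rows, levels were low and the calls less stable. Rpl14-ps1, a copy of the large-subunit gene Rpl14, had medians of 5.63, 4.18 and 2.36 CPM by strain with overlapping ranges, and differed by -1.19 ± 0.35 between CAST/EiJ and C57BL/6J (edgeR, adjusted p = 0.00434). Rps2-ps11 had medians of 0.235, 0.238 and 0.459 CPM (1.00 ± 0.28, adjusted p = 0.00330). Both calls were lost when the control groups alone were compared. Rpsa-ps10 (-2.46 ± 0.87, adjusted p = 0.0177) had medians of 0.222, 0.666 and 0.0921 CPM. That call was lost in 7 alternatives, among them leaving out C57BL/6J control female 2, control male 1, HFHS male 1 or HFHS female 3 (-1.43, adjusted p = 0.292, for the last). Rps25-ps1 was higher in CAST/EiJ (1.59 ± 0.62, adjusted p = 0.0314), where control female 1 had 20.3 CPM and no other library above 0.988 CPM; without that library it was not called (0.65, adjusted p = 0.299). It also missed the threshold without CAST/EiJ control male 1, control male 3 or HFHS female 1, and without C57BL/6J control male 3, HFHS male 1 or HFHS male 3 (adjusted p = 0.0520 to 0.0805), and under DESeq2 (adjusted p = 0.0737), limma (adjusted p = 0.101) and in the HFHS groups alone (0.75, adjusted p = 0.556).

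The 4 rows called between NZO/HlLtJ and C57BL/6J were all under 1 CPM in the median library. Rpl28-ps1, every window of which occurs in the large-subunit gene Rpl28, held 257 counts over the 12 C57BL/6J libraries, 2.39 over those of NZO/HlLtJ and 17.6 over those of CAST/EiJ. Its calls in NZO/HlLtJ and CAST/EiJ less C57BL/6J (edgeR, adjusted p = 5.28e-04 and 7.88e-04) were both lost without C57BL/6J HFHS male 2 (adjusted p = 0.9999). The highest count of Rpl28-ps1 in NZO/HlLtJ was 1.05, and 2 CAST/EiJ libraries held at least 1 count. The row could not pass the filter on low counts without C57BL/6J. A strain difference was thus fixed in advance, and these adjusted p are no evidence of one. Rps25-ps1 was lower in NZO/HlLtJ (-2.89 ± 0.96, adjusted p = 0.0231), with 21.02 counts against 110 in C57BL/6J, and was not called without C57BL/6J control male 1 (adjusted p = 0.119) or HFHS male 2 (adjusted p = 0.996). Rpl19-ps1 was higher (2.77 ± 0.61, adjusted p = 8.13e-04), with 79.5 counts against 14.9, and Rpl13-ps1 was higher (1.48 ± 0.42, adjusted p = 0.00752), with 117 against 43.0. The highest count of Rpl19-ps1 in a library was 4.47 in C57BL/6J, 17.5 in NZO/HlLtJ and 4.12 in CAST/EiJ. Rpl19-ps1 could thus pass the filter on low counts only through NZO/HlLtJ. Its difference was fixed in advance, and its adjusted p is no evidence of one. Rpl13-ps1 held whole counts in all 36 libraries. None of its 100-base windows was found in Rpl13, but 18.4% of its 50-base windows were. The alignment, made in the annotated orientation only, covered 1.497% of it, while windows were searched on both strands. The alignment therefore does not measure the likeness of Rpl13-ps1 to that parent. The call of Rpl19-ps1 was lost in the HFHS groups alone and that of Rpl13-ps1 in the control groups alone. Rps13-ps2 was called between NZO/HlLtJ and CAST/EiJ (adjusted p = 0.00441), with 68.0 counts over the NZO/HlLtJ libraries against none in CAST/EiJ. In C57BL/6J it held 18.9 counts, at most 7.92 in a library, and could not pass the filter without NZO/HlLtJ. A difference between NZO/HlLtJ and CAST/EiJ was thus fixed in advance, and the adjusted p is no evidence of one. The log2 difference was 4.15 without NZO/HlLtJ control female 2 (adjusted p = 0.9999), 4.38 in DESeq2 (adjusted p = 0.156) and 4.59 in the control groups alone (adjusted p = 0.0776), and was called in none of these. Rps10-ps2 and Rpl17-ps10 were also called higher in NZO/HlLtJ than in CAST/EiJ (1.41 ± 0.50 and 1.44 ± 0.57, adjusted p = 0.0180 and 0.0342).

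Some rows also overlap other genes in position. Of the pseudogenes, 46 lie wholly inside another gene of the deposited annotation, 14 of them on the same strand, and whether the counting used strand was not given in the sources used here. Such a gene held 13 of the 32 tested rows. Rps12-ps3 lies in Pdzd8 on the opposite strand and Rpl17-ps8 in Heph on the same strand. Those hosts differed by 0.06 and -0.20 between CAST/EiJ and C57BL/6J, where the pseudogenes differed by -4.60 and -6.75. The part of overlapping genes in the values of the pseudogene rows was not tested. Rps23-ps1 lies inside Gm5148 on the opposite strand, and Gm5148 differed by -6.78 in NZO/HlLtJ and -4.96 in CAST/EiJ, while Rps23-ps1 differed by 0.18 and 0.20. Rpl10-ps6 lies in Ide, the insulin-degrading enzyme gene, on the same strand. It had medians of 0.328, 0.187 and 0.0936 CPM, and differed by -1.89 ± 0.40 between CAST/EiJ and C57BL/6J (edgeR, adjusted p = 1.65e-04), and Ide differed by -0.61 there and by -0.63 in NZO/HlLtJ.

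For the parents, adding the pseudogene rows of this list to the parent row before the fit removed the largest differences. Of the 46 parents, 32 were called between CAST/EiJ and C57BL/6J with the parent row alone and 31 with the family sum, against 55.5% of all genes in both fits. The number with an absolute log2 difference over 1 went from 8 to 2. Rpl9 went from 3.96 to 0.21, Rpl17 from 4.75 to 0.21, Rpl19 from 3.22 to 0.21, Rps12 from 4.91 to 0.46 and Rpl27 from 2.75 to 0.03, which was not called (edgeR, adjusted p = 0.737). Rpl10 changed direction from -0.43 to 0.16 and Rps13 from -1.01 to 0.31 (edgeR, adjusted p = 0.0117 and 5.85e-05 for the sums). Rps15 stayed lower in CAST/EiJ at -0.78 ± 0.07 (adjusted p = 2.02e-11). The difference of 37 of the 46 parents moved by under 0.1. All these fits held CAST/EiJ control female 1, which lay above every other CAST/EiJ library in 45 of the 46 families. Parent and sum results without it are not given, here or below, so the part of that library in the smaller differences was not tested.

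The symbols with "-ps" are not the only look-alikes in the table. A further 158 rows share at least one 100-base window with 1 of the parents and do not overlap that parent's deposited span. Of these, 147 are gene models named Gm with a number, but genes such as Uimc1 and Trappc4 are among them, and 15 had a median of at least 1 CPM in some strain. With these added, a choice made after seeing the data, 28 parents were called between CAST/EiJ and C57BL/6J and none exceeded an absolute log2 difference of 1. The share of all genes called in the fit with these rows added is not given, so the count of 28 is not read against a background. Rpl29 went from -2.23 to 0.20 with rows that include Gm10709, whose medians were 0.0887, 0.0248 and 50.4 CPM by strain, and Uimc1, at 17.7, 18.1 and 25.98 CPM. Rpl23a went from 1.18 to 0.25 with rows that include Gm10335, at 101.5, 109 and 0.0971 CPM. Rpl7 went from 0.70 to 0.00 with rows that include Gm12174, at 79.9, 81.6 and 0.931 CPM. Rpl5 changed direction from 0.36 to -0.32 with rows that include Gm15500, at 155, 155 and 109 CPM. Rps15a, at 181, 167 and 99.0 CPM, kept its -0.83 in every sum, which with Rps15 at -0.78 was the largest remaining difference.

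**Figure D4:**
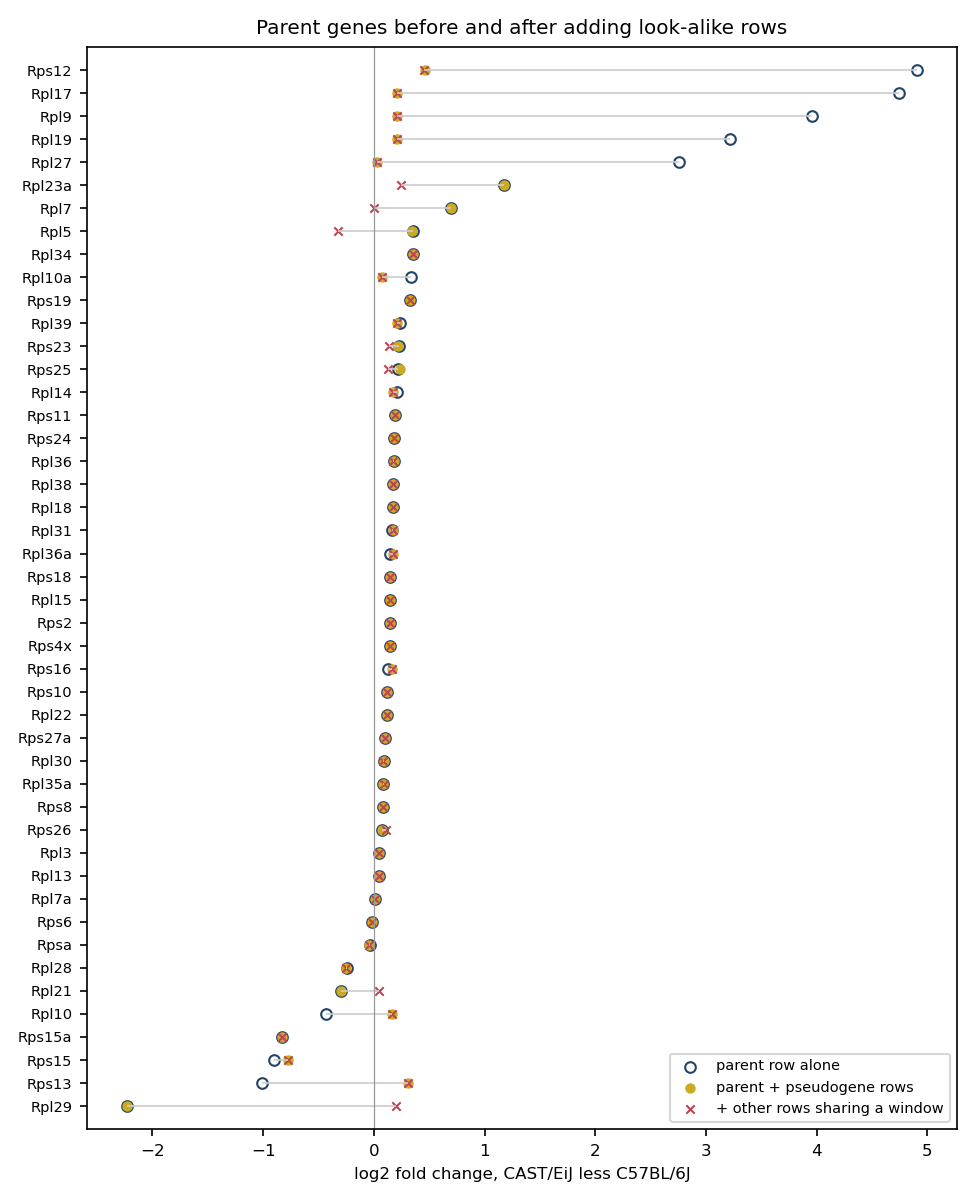
log2 fold change of CAST/EiJ less C57BL/6J (horizontal axis) of the 46 parent genes (vertical axis, sorted), for the parent row alone (open circle), with its pseudogene rows added (filled circle) and with all other rows that share a 100-base window added (cross). The 8 parents beyond 1 in absolute value with the row alone become 2 with the pseudogenes and none with all look-alikes, and Rps15a and Rps15 lie at -0.83 and -0.78 with all look-alikes.

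Between NZO/HlLtJ and C57BL/6J the sums changed less. There, 7 parents were called alone and 8 with the family sum, against 26.6% of all genes, and no parent exceeded 1 in absolute log2 difference. Rpl17 was lower in NZO/HlLtJ alone (-0.48 ± 0.11, edgeR, adjusted p = 6.81e-04) and was not called with its pseudogenes. Between NZO/HlLtJ and CAST/EiJ, 18 parents were called alone, 12 with the family sum and 11 with all look-alikes, against 53.7% of all genes for the first 2.

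The other genes of the ribosome and of translation were read in the same fit. Of the 38 tested cytosolic ribosomal protein genes that have no pseudogene row here, 18 were higher and 6 lower in CAST/EiJ than in C57BL/6J, or 63.2% called against 55.5% of all genes, with a median of 0.13 on the log2 scale against 0.00 over all tested genes. That fit held CAST/EiJ control female 1, and values of these lists without it are not given. Fau, which encodes a ubiquitin-like protein fused to a small-subunit protein, was higher by 1.68 ± 0.08 (edgeR, adjusted p = 5.26e-17), and Rpl27a by 0.83 ± 0.04 (adjusted p = 1.27e-16). Rps4l was lower in NZO/HlLtJ than in C57BL/6J (-1.54 ± 0.08, adjusted p = 1.02e-16). Among 25 genes of ribosome biogenesis, 7 were higher and 7 lower in CAST/EiJ (56.0% called, near the share of all genes), and Mybbp1a, which encodes a nucleolar protein, was among the higher (0.30 ± 0.03, adjusted p = 6.68e-10). Among 22 translation factors 27.3% were called, below the share of all genes, with 5 higher and 1 lower, Eif4a1, the mRNA-unwinding helicase of initiation (-0.28 ± 0.05, adjusted p = 7.34e-06).

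Pseudogene rows of other gene families were read in the same way. Of the 172 other rows with "-ps", 57 were tested, and 25 were higher and 10 lower in CAST/EiJ than in C57BL/6J, or 61.4% called against 55.5% of all genes. The absolute log2 difference exceeded 4 and was called for 7 of those tested, against 358 of all 20053 genes tested. These rows passed the same filter. Tdg-ps had a mean of 0.0257 ± 0.0519 CPM (SD, n = 12) in C57BL/6J and 5.37 ± 0.651 CPM in CAST/EiJ (edgeR, log2 difference 8.54 ± 0.25, adjusted p = 9.06e-21). Mrpl23-ps1 had means of 11.7 ± 1.03, 12.2 ± 1.69 and 0.110 ± 0.238 CPM by strain (SD, n = 12 each). The difference between the ribosomal and the other pseudogene rows was not tested.

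Diet and sex moved none of the 32 rows past the threshold in edgeR. For HFHS less control the background was 0.0% of genes in C57BL/6J, 0.145% in NZO/HlLtJ (0.105% higher, 0.0399% lower) and 0.12% in CAST/EiJ (0.0399% higher, 0.0798% lower). It was 0.0299% averaged over strains and 0.115% for the joint test of strain by diet. For females less males it was 0.175% (0.105% higher, 0.0698% lower). At an unadjusted p under 0.05 there were 2, 2 and 11 rows in the 3 strains, 5 averaged, 4 for strain by diet and 3 for sex. DESeq2 called 2 for diet in CAST/EiJ, 1 for strain by diet and 1 for sex, where 2.09%, 2.47% and 0.459% of all genes were called, and none in the other 3. The smallest adjusted p for diet in CAST/EiJ was that of Rpl10-ps3 (-0.28 ± 0.08, edgeR, adjusted p = 0.09997). This comparison holds CAST/EiJ control female 1 in its control arm. Without that library it called no row (0.044% of all genes). Without control female 2 it called 10 of 37 rows, where 13.1% of all genes were called, and without control female 3 it called 1, where 0.66% were. Rpl5-ps2 had the smallest adjusted p for strain by diet (0.0900), with a diet difference of 0.62 ± 0.21 in NZO/HlLtJ and -0.64 ± 0.21 in CAST/EiJ.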

How the data were processed

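RNA-seq libraries of poly(A) RNA were sequenced as paired reads of 100 bases, per the labels' protocols. The deposited count table holds expected counts, estimated per gene by the authors and not always whole. The build GRCm38 and the tool DESeq2 are named in the submitters' processing notes. The aligner, the counter and its strand setting were not given in the sources used here. Whether the same genome or a genome of each strain was used for mapping was not given either. The authors also deposited values on a log2-like variance-stabilized scale, used only as an alternative. Expected counts were rounded, filtered (filterByExpr) and fitted with edgeR 4.0.16 in R 4.3.3 (TMM, quasi-likelihood, 12 group means, 24 residual degrees of freedom). Strain contrasts averaged diet and sex. P-values were adjusted by Benjamini-Hochberg over 20053 genes, with a threshold of 0.05. The same code was tested on simulated data. CPM used the TMM library sizes. P-values measure the spread between libraries, which may be technical where they are not separate animals.

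Parent and pseudogene transcripts of GENCODE M21 were aligned locally, in the annotated orientation only, with Biopython 1.88 (match 1, mismatch -2, gap -4 and -1). They were also cut into windows of 100 bases, searched on both strands. Family sums added all pseudogene rows to the parent row before the fit. Named rows were the 10 highest, up to 8 called rows per strain contrast and direction, the 5 highest and 5 lowest shares of the parent, rows inside another gene with a called strain difference, and at most 4 genes per comparison list; Rps6-ps4, Rps10-ps2, Rpl17-ps10 and the added look-alike rows were also chosen after their values were seen. The members and lists were chosen with earlier results of these data known. Alternatives were another normalization (median-ratio), DESeq2 1.42.0, limma 3.58.1 on the deposited values, other filters, single diets, family sums and leaving out each of the 36 libraries.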

Additional observations from a re-analysis of the deposited data

How the results depend on the processing

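The 8 pseudogene rows whose ranges did not overlap were called in the same direction between CAST/EiJ and both other strains under every alternative that tested them. Over the pairwise strain comparisons of 23 named rows, 2823 values under alternatives stayed on their side of the threshold, 83 lost a call, 28 gained one and none reversed. Without a filter the numbers of called rows were 7 (NZO/HlLtJ less C57BL/6J), 30 (CAST/EiJ less C57BL/6J), 33 (NZO/HlLtJ less CAST/EiJ) and 36 (joint test) of 132 tested, where 22.3%, 48.1%, 46.9% and 57.4% of all genes were called. With at least 1 CPM in 18 libraries they were 0, 9, 8 and 9 of 13 tested (29.4%, 57.4%, 55.2% and 67.9% of all genes). Among the 16 rows with a mean of at least 1 CPM, a choice made after seeing the data, they were 0 for NZO/HlLtJ less C57BL/6J and 11 for CAST/EiJ less C57BL/6J. They were 10 for NZO/HlLtJ less CAST/EiJ and 11 for the joint test. In that fit 26.6%, 55.5%, 53.7% and 65.6% of all genes were called, in the same order. The control groups alone gave 2 rows between NZO/HlLtJ and C57BL/6J, and the HFHS groups alone also gave 2. For these counts, and for the strain counts with libraries left out below, the share of all genes called is not given, so they are not read against a background. DESeq2 gave 2 rows for diet in CAST/EiJ, 1 for strain by diet and 1 for sex. The wider family sum, also chosen after seeing the data, called 5 parents between NZO/HlLtJ and C57BL/6J, a count given without the share of all genes. With windows of 50 bases, 74 pseudogenes shared at least 50% of them with the parent. Leaving out 1 library at a time, where 35 to 37 rows passed the filter, gave 4 to 7 called rows for NZO/HlLtJ less C57BL/6J (7 without CAST/EiJ control female 1 and without C57BL/6J HFHS female 3), 15 to 21 for CAST/EiJ less C57BL/6J, 17 to 21 for NZO/HlLtJ less CAST/EiJ, 20 to 23 for the joint test, 0 to 10 for diet in CAST/EiJ, and 0 to 1 for strain by diet and for sex (1 without CAST/EiJ control female 2). The cause was not tested. No paired analysis was possible because the labels give no replicate numbers. Counts under about 1 CPM limit what can be said of the 103 rows not tested.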
